A study of Mus musculus with 30 samples.

Results

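The genes described here are *Csf1*, *Csf1r*, *Cx3cr1*, *Adgre1*, *Cd163*, *Mrc1*, *Lyve1*, *Folr2* and *Timd4*, 9 genes by which the resident macrophages of the intestinal muscle layer are usually recognized or on which these cells depend. They were chosen by name, and all 9 were found among the 24601 genes listed for total RNA of the muscularis externa (*ME*), the muscle layer of the gut wall. Among the 26179 genes listed for the *RiboTag* fraction, mRNA bound to HA-tagged ribosomes, 8 of them were found, and *Folr2* was not listed in any *RiboTag* table.

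*ME* of the mouse small bowel was collected from naive animals or following intestinal manipulation (IM), with 3 h for IM3h, 24 h for IM24h and 72 h for IM72h between surgery and sampling. IM is a standardized handling of the bowel during laparotomy that serves as the model of postoperative ileus. Each lysate gave total RNA, called input in the labels, or RNA precipitated with an antibody to HA. All mice carried the HA-tagged ribosomal protein allele B6N.129 Rpl22tm1.1Psam/J. The comparisons ask how these genes changed after surgery in the whole tissue and in the glial pulldown.

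Total *ME* RNA of naive mice (n = 3) and at IM3h (n = 3) is labelled as coming from the *Gfap*-Cre line B6.Cg-Tg73.12Mvs/J(Gfap-cre). *ME* RNA at IM24h (n = 4) and IM72h (n = 4) and every *RiboTag* library are labelled with the tamoxifen-inducible line B6 Tg(Sox10-icre/ERT2)388Wdr/J, in which the *Sox10* promoter drives Cre in glial cells. The *RiboTag* tables held 3 libraries of naive mice, where the labels list 4, and 4 at each time after surgery. The study's methods describe adult male mice for surgery. Time and Cre line cannot be told apart when *ME* RNA at IM24h or IM72h is set against naive mice, whereas IM3h against naive mice and IM72h against IM24h each stay within 1 line. The labels do not tie libraries to animals. The study's legends count mice for these data, so libraries of a group are taken as separate mice.

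Counts per library totalled 6603125 to 12866014 in *ME* RNA and 3010338 to 7899551 in *RiboTag* RNA. *RiboTag* libraries at IM24h and IM72h stood apart. AY036118, an entry inside an rRNA gene, took up 22.2% to 59.2% and 58% to 80.1% of their counts, against 2.68% to 14% in naive mice and 2.02% to 10.3% at IM3h, and without it 1702521 to 4083482 counts per library remained at IM24h and 663819 to 1619436 at IM72h, against 4249937 to 4732141 in naive mice. In *ME* RNA it took up 16.1% to 33.5% of counts in naive mice and 24.1% to 25.1% at IM3h, but 1.33% to 6.5% at IM24h and 2.34% to 3.69% at IM72h. With AY036118 left out, all 33 tests of the 9 genes in *ME* RNA kept their direction and their side of the threshold, and the largest move of a log2 fold change was 0.019. The smooth muscle genes *Myh11*, *Actg2*, *Acta2*, *Des*, *Cnn1* and *Tagln* summed to between 22000 and 22900 CPM (read counts scaled to a common library total after TMM normalization) in naive *ME* RNA, and to between 3160 and 10600 CPM at IM24h. Of 6 glial genes, among them *Sox10*, *S100b* and *Gfap*, 6 were higher in *RiboTag* than in *ME* RNA in naive mice and also 6 after 3 h and 4 after 24 h, but at IM72h 1 was higher and 1 lower. Values are relative to the TMM scale, on which genes tested in *ME* RNA had a median log2 fold change between 0.00 and 0.02, and library totals moved that median by -0.26, 0.64 and 0.60 at IM3h, IM24h and IM72h. Each *RiboTag* result at IM72h below therefore rests on shallow libraries in which the glial label was less clear.

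Muscularis macrophages lie between and within the muscle layers and around the myenteric plexus, where they exchange signals with neurons, glia and smooth muscle. Their survival depends on the receptor CSF1R, a tyrosine kinase whose ligands are CSF1 and IL-34, and they carry the fractalkine receptor CX3CR1 and the adhesion receptor F4/80, encoded by *Adgre1*. MRC1 (CD206), CD163, LYVE1, folate receptor beta (*Folr2*) and TIM4 (*Timd4*) are scavenger and uptake receptors that mark long-lived resident macrophages of many tissues, whereas monocytes that enter inflamed muscle from blood carry little of them at first.

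RefSeq promoters, from 250 bases before to 50 bases after the annotated start in GRCm38.p6, were found for 6 of the 9 genes. The 3 that follow belong to the ligand gene that rose soonest after surgery, a receptor gene that fell and then rose, and a receptor gene whose counts are shared between a coding and a short transcript. Capitals mark the letters that matched a motif on either strand. The motifs searched were GAGGAA, the core bound by the macrophage factor PU.1, TGANTCA, the AP-1 site, and the kappaB site of NF-kappaB. *Csf1* lies on the minus strand at chr3:107760420-107760719, *Cx3cr1* on the minus strand at chr9:120068247-120068546 and *Mrc1* on the plus strand at chr2:14229164-14229463.
Csf1: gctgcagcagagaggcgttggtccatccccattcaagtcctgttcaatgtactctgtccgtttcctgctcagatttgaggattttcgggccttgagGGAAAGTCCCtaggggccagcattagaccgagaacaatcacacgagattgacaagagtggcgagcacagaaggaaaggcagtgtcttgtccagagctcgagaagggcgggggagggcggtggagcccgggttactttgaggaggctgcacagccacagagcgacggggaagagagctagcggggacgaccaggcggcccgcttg
Cx3cr1: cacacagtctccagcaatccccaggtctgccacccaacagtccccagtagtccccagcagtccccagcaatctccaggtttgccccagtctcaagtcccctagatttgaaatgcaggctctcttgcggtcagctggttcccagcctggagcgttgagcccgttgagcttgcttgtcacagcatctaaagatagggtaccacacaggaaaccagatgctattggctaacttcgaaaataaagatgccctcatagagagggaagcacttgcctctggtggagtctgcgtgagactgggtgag
Mrc1: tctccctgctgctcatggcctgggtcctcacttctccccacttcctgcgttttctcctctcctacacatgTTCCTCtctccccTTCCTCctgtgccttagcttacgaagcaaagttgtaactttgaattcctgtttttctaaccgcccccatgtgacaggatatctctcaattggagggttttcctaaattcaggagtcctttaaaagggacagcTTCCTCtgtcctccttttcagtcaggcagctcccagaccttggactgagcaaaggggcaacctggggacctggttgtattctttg

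The *Csf1* window held 1 kappaB match, from base -154 to base -145 relative to the start. That start, the outermost one annotated for *Csf1*, is not the start of the transcript that held most of its counts, which begins at 107760236, outside the window. In the *Mrc1* window GAGGAA matched 3 times on the minus strand, from -180 to -175, from -167 to -162 and from -35 to -30. No searched motif matched in the *Cx3cr1* window, which says only that these letters are not in this stretch. Of 32851 promoters of the same length, 28.3% held GAGGAA, 8.46% the kappaB site and 7.81% TGANTCA, so a match to GAGGAA is common.

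*Csf1*, which encodes the growth factor that keeps macrophages alive and is made largely by other cells of the muscle layer, rose first and stayed above naive mice in *ME* RNA. Its level was 17.6, 17.7 and 27.7 CPM in the 3 naive libraries and 80.1, 80.0 and 69.3 CPM at IM3h. At IM24h it was 56.6, 58.8, 50.03 and 49.6 CPM, and at IM72h 47.8, 51.8, 53.5 and 24.1 CPM. Every library at IM3h and IM24h lay above every naive library, and 1 library at IM72h fell among them. The log2 fold change was 1.93 (SE 0.18, adjusted p = 3.82e-05) at IM3h, 1.33 (SE 0.20, adjusted p = 0.00112) at IM24h and 0.97 (SE 0.27, adjusted p = 0.0102) at IM72h. Scaled to the reference genes *Actb*, *Hsp90ab1* and *Rplp1* it was 0.94 (adjusted p = 0.0584) at IM24h and 0.33 (adjusted p = 0.286) at IM72h, both past no threshold. Between IM24h and IM72h the difference was -0.37 (SE 0.22, adjusted p = 0.213). The order of medians was IM3h, IM24h, IM72h and naive, of which IM24h and IM72h did not differ beyond their spread. In bulk RNA a lower or higher value of any of these genes can come from fewer or more of the cells that express it or from less or more RNA in each, and these cannot be told apart here.

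*Csf1r*, the receptor for both ligands, was slightly lower at IM3h and higher at IM72h, whereas its ligand had its highest values at IM3h. Naive libraries held 46.2, 45.3 and 43.2 CPM, and IM3h libraries 31.9, 34.2 and 31.3 CPM. At IM24h the values spread from 29.1 over 37.9 and 53.3 to 71.9 CPM, on both sides of the naive range. IM72h libraries held 82.7, 125.6, 106.1 and 120.1 CPM, above all other libraries. It fell by 0.40 on the log2 scale at IM3h (SE 0.12, adjusted p = 0.0275), a call that held in 7 of 15 alternatives. The call was lost by DESeq2 (adjusted p = 0.0573), without a filter (adjusted p = 0.0506) and with all groups in 1 fit (adjusted p = 0.245). Leaving out naive library 1 or 2 or IM3h library 1 or 3 lost it too (adjusted p from 0.0586 to 0.0777). At IM24h the log2 fold change was 0.08 (SE 0.28, adjusted p = 0.852). It rose by 1.17 on the log2 scale at IM72h (SE 0.15, adjusted p = 6.48e-05), and by 1.09 from IM24h to IM72h (SE 0.26, adjusted p = 0.00672), within 1 Cre line.

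Of 15 other genes of CSF1R and CX3CR1 signalling, 14 were tested at IM3h and 6 rose while none fell, 15 were tested at IM24h with 8 higher, and at IM72h 11 were higher and 1 lower. Of all genes tested in *ME* RNA 19.3%, 15.6% and 29.3% were called higher at the 3 times and 13.4%, 13.4% and 28.3% lower. The list's median log2 fold change was 0.76, 1.78 and 0.91, beside medians between 0.00 and 0.02 over all genes tested. *Runx1*, a transcription factor of blood cell development that binds the *Csf1r* enhancer, rose by 3.11 at IM3h (SE 0.20, adjusted p = 2.82e-06) and 3.37 at IM24h (SE 0.26, adjusted p = 6.09e-05) on the log2 scale, and fell by 1.92 from IM24h to IM72h (SE 0.21, adjusted p = 9.94e-05). In *RiboTag* RNA it rose by 3.99 at IM3h (SE 0.34, adjusted p = 4.36e-05) and 3.99 at IM24h (SE 0.60, adjusted p = 0.0206), and at IM3h it was higher there than in *ME* RNA by 1.02 (SE 0.23, adjusted p = 0.0112). Of the other ligands, *Il34* in *ME* RNA rose at IM72h (log2 fold change 0.91, SE 0.27, adjusted p = 0.0126), and *Cx3cl1*, the gene of fractalkine, had log2 fold changes of 0.08, 0.32 and 0.41 in *ME* RNA at the 3 times, with adjusted p of 0.851, 0.455 and 0.103.

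*Cx3cr1*, the receptor for fractalkine, fell at IM3h and stood above naive mice at IM72h. It stood at 18.7, 24.5 and 19.4 CPM in naive *ME* RNA and dropped to 4.79, 4.47 and 4.63 CPM at IM3h, below every naive library. At IM24h it was back at 20.3, 21.9 and 22.9 CPM in 3 libraries and at 38.3 CPM in the other. IM72h libraries held 71.2, 75.5, 81.3 and 72.8 CPM, with no overlap with any earlier group. On the log2 scale it fell by 2.09 at IM3h (SE 0.22, adjusted p = 6.09e-05) and differed by 0.30 at IM24h (SE 0.26, adjusted p = 0.42). It rose by 1.76 at IM72h against naive mice (SE 0.14, adjusted p = 2.66e-06) and by 1.45 against IM24h (SE 0.20, adjusted p = 0.000311). Both within-line steps, the fall at IM3h and the rise after IM24h, passed the test.

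*Adgre1*, which encodes the F4/80 antigen of mouse macrophages, was near its naive level at IM3h and had risen by IM24h. Naive libraries held 12.2, 10.4 and 10.2 CPM and IM3h libraries 8.22, 9.96 and 7.51 CPM. IM24h libraries held 24.7, 58.0, 62.5 and 51.7 CPM, and IM72h libraries 73.4, 68.3, 68.6 and 55.9 CPM. The IM24h and IM72h groups overlapped each other but not the naive group. Its log2 fold change was -0.28 (SE 0.21, adjusted p = 0.34) at IM3h, 2.15 (SE 0.31, adjusted p = 0.000829) at IM24h and 2.50 (SE 0.15, adjusted p = 5.41e-07) at IM72h, and the step from IM24h to IM72h was 0.34 (SE 0.25, adjusted p = 0.297). Scaled to 3 reference genes *Adgre1* was called lower at IM3h (-0.69, adjusted p = 0.0284), where all genes had a median of -0.41.

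*Mrc1*, the mannose receptor CD206, followed *Adgre1*. It stood at 26.5, 25.1 and 25.8 CPM in naive mice and at 26.4, 21.9 and 19.0 CPM at IM3h. IM24h libraries held 96.9, 51.4, 71.3 and 72.1 CPM and IM72h libraries 162.7, 143.9, 115.8 and 81.5 CPM. All 8 libraries of the later times lay above all 6 of the earlier ones. The log2 fold change was -0.13 (SE 0.16, adjusted p = 0.582) at IM3h, 1.48 (SE 0.21, adjusted p = 0.000821) at IM24h and 2.18 (SE 0.22, adjusted p = 1.44e-05) at IM72h. Scaled to 3 reference genes *Mrc1* too was called lower at IM3h (-0.53, adjusted p = 0.0331), beside the median of -0.41 over all genes. The rise at IM72h rested on counts that the authors' quantification gave to 1 short transcript, as described below. The step from IM24h (0.70, SE 0.24, adjusted p = 0.037) was lost without IM24h library 2, 3 or 4 or IM72h library 1, 2 or 3 (adjusted p from 0.0507 to 0.113).

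*Cd163*, *Lyve1*, *Folr2* and *Timd4* gave other patterns. *Cd163*, the haemoglobin scavenger receptor, held 11.1, 5.19 and 7.56 CPM in naive mice, and its medians were 4.33 CPM at IM3h (range 3.83 to 9.04), 6.37 CPM at IM24h (4.53 to 7.06) and 7.50 CPM at IM72h (6.18 to 14.3). Its groups overlapped at every time, with log2 fold changes of -0.40 (SE 0.39, adjusted p = 0.466), -0.41 (SE 0.35, adjusted p = 0.406) and 0.04 (SE 0.33, adjusted p = 0.927). Between 74.2% and 83.9% of its naive counts lay on an annotated retained intron transcript in the later part of the gene (bases 124320487 to 124330519 of chromosome 6 in mm10).

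*Lyve1*, the hyaluronan receptor of perivascular macrophages that lymphatic endothelium also carries, held 14.4, 13.1 and 14.8 CPM in naive *ME* RNA. It held 20.5, 13.4 and 15.8 CPM at IM3h, 13.7, 13.8, 22.3 and 28.5 CPM at IM24h and 15.8, 29.7, 18.9 and 40.5 CPM at IM72h. All 4 IM72h libraries lay above the naive range, and they differed widely among themselves. Log2 fold changes were 0.31 (SE 0.20, adjusted p = 0.273), 0.45 (SE 0.29, adjusted p = 0.273) and 0.79 (SE 0.29, adjusted p = 0.0356), and the call at IM72h was lost without any 1 of the 3 naive libraries or without IM72h library 2 or 4. Without IM72h library 4 the log2 fold change was 0.49 (adjusted p = 0.0716), and scaled to 3 reference genes it was 0.23 (adjusted p = 0.591). Of 6 lymphatic endothelial genes, which summed to between 32.1 and 47.3 CPM in naive mice and between 55.5 and 112 CPM at IM72h, *Ccl21a* and *Flt4* were the 2 that rose at IM72h, near the 29.3% of all genes called higher, by 2.49 (SE 0.37, adjusted p = 0.000182) and 2.50 (SE 0.28, adjusted p = 2.75e-05). *Prox1*, their defining transcription factor, had a log2 fold change of -0.58 (SE 0.37, adjusted p = 0.194). Their part in the value of *Lyve1* was not tested.

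*Folr2* and *Timd4* rested on few counts. *Folr2* had 33, 13 and 32 counts in naive libraries. IM3h libraries held 1, 2 and 8 counts, IM24h libraries 28, 0, 7 and 13, and the deeper IM72h libraries 13, 24, 10 and 29. In CPM every library after surgery lay below every naive library. It fell by 2.58 on the log2 scale at IM3h (SE 0.65, adjusted p = 0.0128) and by 1.39 at IM72h (SE 0.37, adjusted p = 0.00795), and stood at -1.58 (SE 0.94, adjusted p = 0.237) at IM24h. The call at IM3h was lost without IM3h library 2 (-2.31, adjusted p = 0.0524), that at IM72h with library totals in place of TMM (-0.81, adjusted p = 0.0877), and both with all groups in 1 fit (adjusted p = 0.0794 and 0.199). Over the alternatives the log2 fold change ran from -3.88 to -2.11 at IM3h and from -1.98 to -0.81 at IM72h. *Timd4* had between 7 and 13 counts in naive libraries and between 0 and 16 after surgery, and was too low to be tested at IM3h and IM72h. At IM24h its log2 fold change was -0.32 (SE 1.01, adjusted p = 0.84).

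**Figure D1:**
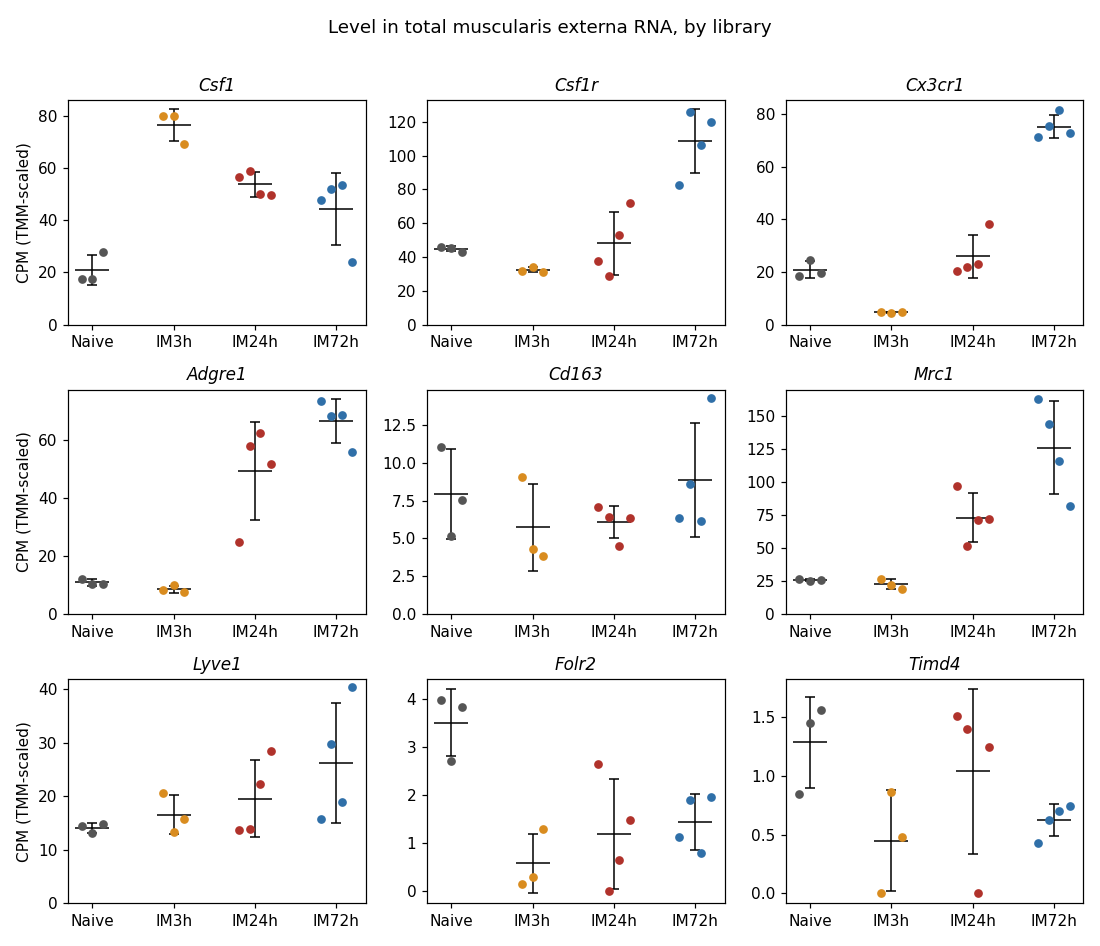
Levels of the 9 genes in total *ME* RNA, with 1 panel for each gene, the 4 groups on the horizontal axis and CPM on the vertical axis. Points are single libraries and lines are the mean ± SD (n = 3 or 4), and *Cx3cr1* falls to between 4.47 and 4.79 CPM at IM3h and reaches 71.2 to 81.3 CPM at IM72h.

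Counted over the set, 8 of the 9 genes were tested at IM3h, 1 was higher and 3 were lower, beside 19.3% of all genes called higher and 13.4% called lower. At IM24h 3 of the 9 tested were higher and 0 lower, beside 15.6% and 13.4% of all genes. At IM72h 6 of the 8 tested were higher and 1 lower, beside 29.3% and 28.3% of all genes. From IM24h to IM72h 3 of 8 were higher and 0 lower, beside 18.6% and 19.9%. The median log2 fold change of those tested was -0.34, 0.30 and 1.07 against naive mice and 0.40 between IM24h and IM72h. Beside the first 3 values the median of all genes was between 0.00 and 0.02.

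**Figure D2:**
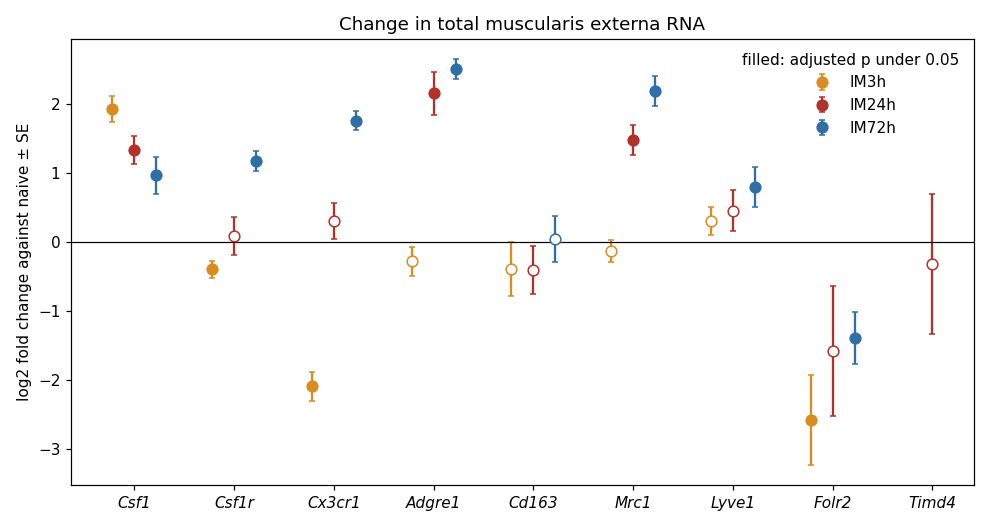
Log2 fold change against naive mice in total *ME* RNA on the vertical axis for each gene on the horizontal axis, with the SE as bars and filled points for an adjusted p under 0.05 in edgeR. At IM3h *Csf1* is at 1.93 and *Cx3cr1* at -2.09, and at IM72h *Adgre1*, *Mrc1* and *Cx3cr1* are at 2.50, 2.18 and 1.76, while *Folr2* is below 0 at each time. The value of *Mrc1* includes its short transcript.

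Of a list of 20 other genes of resident macrophages, 14 were tested at IM3h with 1 higher and 2 lower, 14 at IM24h with 8 higher and 0 lower, and 17 at IM72h with 15 higher and 0 lower, beside 19.3%, 15.6% and 29.3% of all genes called higher. The list had median log2 fold changes of -0.15, 1.28 and 1.82. *C1qa* and *C1qb*, subunits of complement C1q, rose by 3.76 (SE 0.18, adjusted p = 2.76e-07) and 3.52 (SE 0.16, adjusted p = 2.67e-07) at IM72h. The 20 genes summed to between 346 and 437 CPM in naive mice, between 299 and 343 CPM at IM3h and between 1650 and 2040 CPM at IM72h.

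Genes listed as those of recruited monocytes were already higher at IM3h. Of 12, 7 of 8 tested were higher at IM3h, 11 of 12 at IM24h and 11 of 12 at IM72h, where 1 was lower, beside 19.3%, 15.6% and 29.3% of all genes called higher. Their summed level ranged from 544 to 675 CPM in naive mice, 1320 to 1350 CPM at IM3h, 1880 to 2810 CPM at IM24h and 1350 to 1780 CPM at IM72h. In naive *RiboTag* RNA the list summed to between 172 and 272 CPM. How much of these sums came from other cells was not tested. *Ccr2*, the receptor that brings monocytes out of bone marrow and into tissue, rose by 0.71 (SE 0.21, adjusted p = 0.0259), 3.70 (SE 0.16, adjusted p = 5.47e-06) and 2.85 (SE 0.14, adjusted p = 2.9e-07) at the 3 times. *Ly6c2*, whose reads can be split with its close copy *Ly6c1*, rose by 3.10 at IM24h (SE 0.94, adjusted p = 0.031). From IM24h to IM72h, 7 of 12 monocyte genes fell and 1 rose, with *Ccr2* at -0.86 (SE 0.12, adjusted p = 0.00036), while 9 of 17 resident macrophage genes rose and 1 fell, beside 18.6% of all genes called higher and 19.9% lower. Of the 9 genes, *Cx3cr1* and *Csf1r* rose in that same step, calls lost when scaled to 3 reference genes (adjusted p = 0.0548 and 0.243), and the call of *Mrc1* depended on its short transcript.

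Markers of other cells moved as well. Of 8 neutrophil genes all but *Ly6g* were listed, with 3 of 4, 6 of 6 and 6 of 6 tested higher at the 3 times. They summed to between 4.09 and 7.08 CPM in naive mice, 25.1 and 35.8 CPM at IM3h, 57.0 and 229 CPM at IM24h and 42.4 and 79.0 CPM at IM72h. The 11 pan-macrophage and leukocyte genes were higher for 6, 8 and 11 genes at the 3 times and 0 were lower. The shares of all genes called higher, 19.3%, 15.6% and 29.3%, stand beside these counts too. Of these, *Ptprc* (CD45), carried by all leukocytes, stood at 7.34 to 11.4 CPM in naive mice, 8.15 to 14.7 CPM at IM3h, 39.6 to 67.7 CPM at IM24h and 48.2 to 51.6 CPM at IM72h. Its log2 fold change was 0.44 (SE 0.28, adjusted p = 0.259), 2.58 (SE 0.26, adjusted p = 0.000163) and 2.28 (SE 0.16, adjusted p = 1.45e-06). The part of incoming leukocytes in the rises above was not tested directly.

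The 9 genes were also set against *Ptprc* in the same library, as the log2 ratio of their counts, which needs no scaling between libraries. Because *Ptprc* itself rose at IM24h and IM72h, a gene that does not change falls in this ratio, and the median difference from naive mice over all genes tested was -0.41 at IM3h, -2.61 at IM24h and -2.25 at IM72h. Over the 3 times 4, 7 and 7 of the 9 ratios did not overlap with those of naive mice, beside 28.2%, 88.2% and 88.4% of all genes. A ratio below its naive value at IM24h or IM72h is therefore the common case, and the values are read against those medians. Each of the 27 differences went through a two-sided exact permutation test without adjustment, which could not go below p = 0.1 at IM3h or below p = 0.0286 at IM24h and IM72h, and whose reference is no change relative to *Ptprc*.

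At IM24h *Csf1r* went from 2.24 ± 0.37 (SD, n = 3) in naive mice to -0.33 ± 0.59 (SD, n = 4), a difference of -2.57 (exact permutation p = 0.0286). *Cx3cr1* differed by -2.31, *Cd163* by -2.92 and *Lyve1* by -2.18, with the same exact p. These 4 lie around the median of all genes, and on the TMM scale none of them had passed a test at IM24h. With library totals *Cx3cr1* (0.95, adjusted p = 0.0124) and *Lyve1* (1.09, adjusted p = 0.0156) were called higher than in naive mice there. *Adgre1* (-0.50, exact permutation p = 0.171) and *Mrc1* (-1.12, exact permutation p = 0.0857) overlapped with their naive ratios. *Csf1* (-1.20), *Folr2* (-5.11) and *Timd4* (-3.705) did not overlap with theirs, with an exact permutation p of 0.0571 for each. They lay further from the median of all genes, and *Folr2* and *Timd4* each had a library at 0 counts.

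At IM72h *Adgre1* (0.20, exact permutation p = 0.429) and *Mrc1* (-0.16, exact permutation p = 0.686) were near their naive ratios. For *Mrc1* this includes the short transcript described below, which held 74.8% to 88.7% of its counts at IM72h. Its coding transcript held 92.7 to 207 counts in naive mice and 176 to 306 at IM72h, beside 48 to 95 and 600 to 753 *Ptprc* counts. A ratio of the coding transcript alone was not tested. *Cx3cr1* differed by -0.54 and *Csf1r* by -1.14 (exact permutation p = 0.0286 for each), above the median of all genes. *Cd163* (-2.26), *Folr2* (-3.75), *Timd4* (-3.40) and *Csf1* (-1.35) had the same exact p, and *Lyve1* differed by -1.60 (exact permutation p = 0.0571). At IM3h, where *Ptprc* had passed no test, *Csf1* was higher by 1.56, and *Cx3cr1*, *Folr2* and *Timd4* differed by -2.48, -3.26 and -2.33, all 4 without overlap and at the smallest exact p of 0.1. The *Timd4* ratios at IM3h were -7.75, -3.92 and -3.88, the lowest from a library at 0 counts. Those of *Folr2* rested on 1, 2 and 8 counts, so both sizes depend strongly on single libraries.

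With *Cd68*, a lysosomal protein of phagocytes, in place of *Ptprc*, 8 of the 10 differences with an exact permutation p of 0.0286 no longer had a p under 0.05, all 4 at IM24h and 4 of 6 at IM72h. Among them were *Csf1r* (-1.94) and *Cx3cr1* (-1.69) at IM24h and *Csf1r* (-0.25) at IM72h, and *Cx3cr1* at IM72h turned to 0.35. With *Laptm5*, another leukocyte gene, 0 of the 10 were lost. The calls at both times thus depended on which gene was the base.

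**Figure D3:**
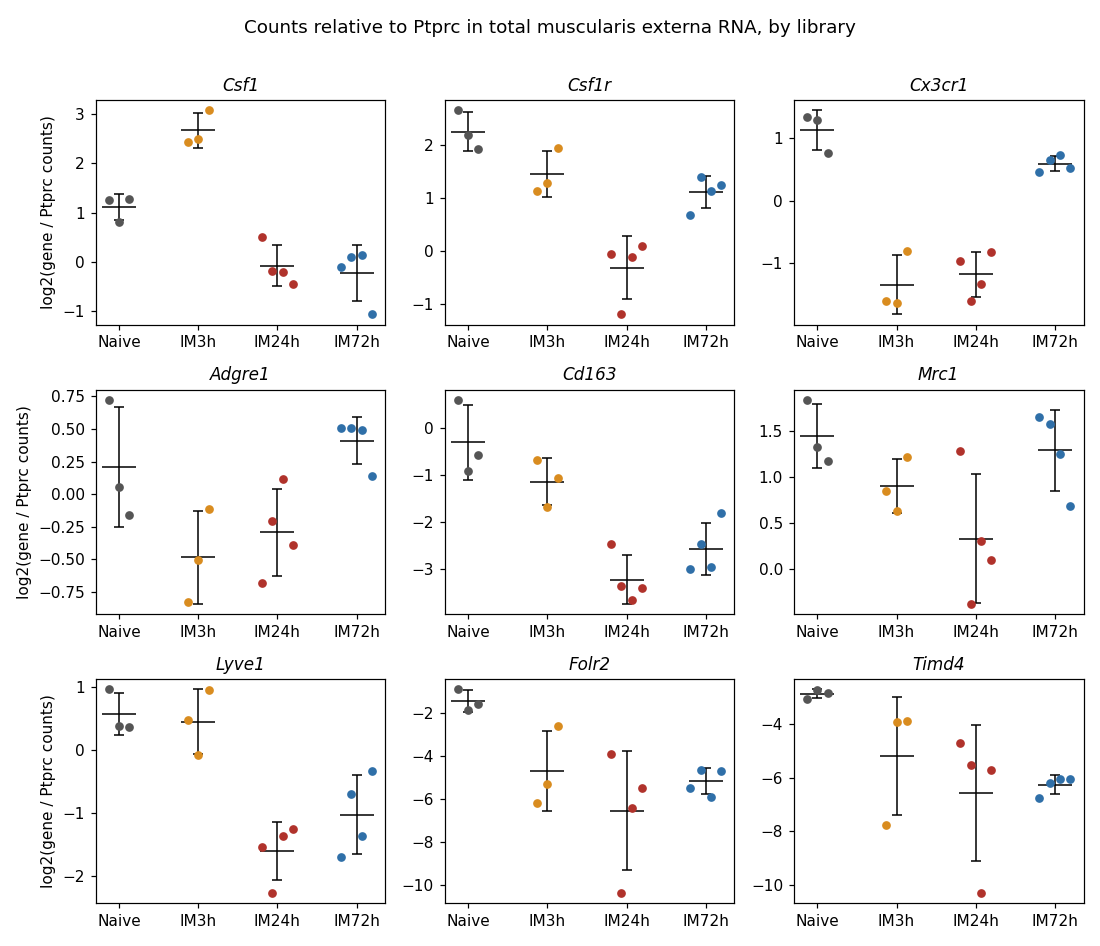
Log2 ratio of each gene's counts to *Ptprc* counts in total *ME* RNA on the vertical axis for the 4 groups on the horizontal axis, with 1 panel for each gene, points for libraries and lines for the mean ± SD (n = 3 or 4). *Csf1r*, *Cx3cr1*, *Cd163* and *Lyve1* at IM24h lie wholly below their naive values, as 87.6% of all genes do, and *Adgre1* and *Mrc1* at IM72h overlap with theirs. Counts of *Mrc1* include its short transcript, 74.8% to 88.7% of them at IM72h.

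Counts of single transcripts showed which part of a gene carried its reads. In the GENCODE annotation of mm10, *Mrc1* spans bases 14229392 to 14332057 of chromosome 2 on the plus strand. Its coding transcript has 30 exons, and a short transcript annotated as retained intron, from 14328561 to 14331927, has 2 exons and keeps an intron of 997 bases (14329925 to 14330921). The annotated ends of these transcripts lie 130 bases apart, and the polyadenylation hexamer AATAAA stands 22 and 70 bases before the end of the short transcript and 54 bases before that of the coding one. The libraries were made from 3′ ends, so that reads near these ends are shared out between both transcripts by the authors' quantification. How well that split matches the RNA present was not tested.

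The short transcript took up 5.68%, 23.4% and 12.3% of *Mrc1* counts in naive *ME* libraries and 14.9%, 17.6% and 8.46% at IM3h. Its share was 38.7%, 58.8%, 24.6% and 19.8% at IM24h and 88.7%, 84.1%, 88.1% and 74.8% at IM72h. The IM72h shares lay above those of all other libraries. The coding transcript held between 92.7 and 207 counts in naive libraries, between 211 and 631 at IM24h and between 176 and 306 at IM72h. Without the short transcript, an alternative chosen after seeing the data, the log2 fold change of *Mrc1* at IM72h was -0.35 (adjusted p = 0.113) in place of 2.18, and the step from IM24h to IM72h was -1.44 (adjusted p = 0.00323). At IM24h *Mrc1* stayed called without it. In *RiboTag* RNA the coding transcript had 84.5, 66 and 37.4 counts in naive libraries, 2 counts in 1 library at IM72h and less than 1 in the other 3. *Mrc1* passed no test there (adjusted p = 0.709) and was called lower without the short transcript (adjusted p = 0.0379), with a fitted size that depends on the prior count.

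*Csf1r*, on chromosome 18 from 61100598 to 61132149, also had its counts spread over a long and a short transcript in *RiboTag* RNA. A short coding transcript that ends at 61110330, 21819 bases before the end of the full-length one, held 38.1%, 25.3% and 12.8% of the gene's counts in naive *RiboTag* libraries and 4.77%, 4.32%, 6.27% and 2.58% at IM3h. It held 43.2%, 85.3%, 100% and 60.2% at IM24h and 100%, 74.3%, 100% and 100% at IM72h. In *ME* RNA its share was at most 11.9%. The full-length transcript was at 0 counts in 2 of the 4 *RiboTag* libraries at IM72h and below 1 count in another. All *Cx3cr1* counts lay on 1 coding transcript (bases 120048683 to 120068296 of chromosome 9), and between 89.4% and 99.1% of *Csf1* counts in *ME* RNA lay on 1 of its coding transcripts (107741048 to 107760236 of chromosome 3).

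**Figure D4:**
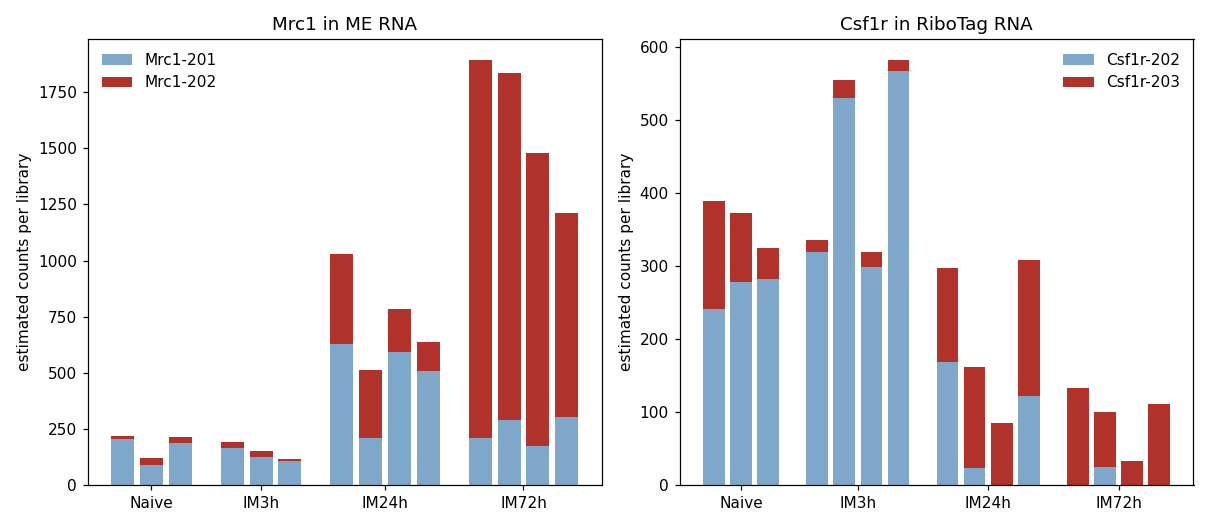
Estimated counts per library on the vertical axis for 2 transcripts each of *Mrc1* in total *ME* RNA (left) and *Csf1r* in *RiboTag* RNA (right), the longer one in blue below and the short one in red above, with libraries grouped by time on the horizontal axis. At IM72h the short transcript makes up 74.8% to 88.7% of *Mrc1* and 74.3% to 100% of *Csf1r*.

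In *RiboTag* RNA the macrophage genes were detected in naive mice, although *Sox10* marks glia. *Csf1r* had 389, 374 and 335 counts in the 3 naive libraries, 39.8 to 49.5 CPM, and *Csf1* had 220, 262 and 248 counts. *Cx3cr1* had 118, 91 and 85 counts, *Mrc1* 123, 66 and 81, *Adgre1* 56, 18 and 36, *Cd163* 56, 37 and 18, and *Lyve1* 13, 59 and 36. *Timd4* had 0, 1 and 11 counts in these libraries and 0 at every later time. The naive *RiboTag* libraries also held between 81.5 and 198 CPM of the 11 pan-macrophage and leukocyte genes together, with *Cd68* at 0 in each, and between 4930 and 7540 CPM of the smooth muscle genes. The share of carried-over tissue RNA in these counts was not tested.

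At IM3h *Csf1* stood at 738, 320, 393 and 345 *RiboTag* counts and *Cx3cr1* at 44, 0, 18 and 100. In CPM every IM3h library lay above the naive libraries for *Csf1*, the lowest at 30.99 against a highest naive value of 29.9. For *Cx3cr1* every one lay below, the highest at 9.39 against a lowest naive value of 10.1. These were the directions seen in *ME* RNA, but neither gene passed the test, with adjusted p of 0.244 and 0.337. The share of all genes without such overlap was not computed. *Csf1r* had 336, 555, 319 and 582 counts, on both sides of its naive level in CPM. None of the 7 tested genes was called at IM3h or at IM24h, by edgeR or by DESeq2, and 0 had an unadjusted p under 0.05 in edgeR, beside 13.3% and 0.497% of all genes called at these times. Counts of 16060 genes were simulated for *RiboTag* RNA at IM3h, with the same spread between libraries for every gene. Of genes changed 4-fold 98% were recovered, and of those changed 2-fold 48.4%. These rates do not apply to genes that vary more. The SE of the 7 genes ran from 0.29 to 1.25 at IM3h and from 0.43 to 1.72 at IM24h, so that for those with the larger SE a 4-fold change could be missed too.

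Later *RiboTag* libraries varied more. At IM24h *Csf1* had 299, 117, 0 and 77 counts, *Cx3cr1* 58, 20, 101 and 66 and *Mrc1* 61, 91, 0 and 186. At IM72h *Csf1* had 0, 315, 3 and 0 counts, *Adgre1* 0, 0, 0 and 69 and *Mrc1* 223, 2, 0 and 78. Single libraries thus decided the group means of *Csf1* and *Adgre1* at IM72h.

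*Cd163* was the only one of the 7 tested genes called in *RiboTag* RNA at IM72h, beside 16.1% of all genes. It had 0 counts in all 4 libraries, where naive mice had a mean of 3.87 CPM, at least 2.49-fold more than a floor of 3 counts in each library allows, and the adjusted p was 0.0101. Of the 2049 genes called lower in this comparison, 1305 (63.7%) were likewise at 0 in all 4 IM72h libraries. DESeq2 did not call *Cd163*, and it was too low to be tested when AY036118 was left out of the library totals.

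**Figure D5:**
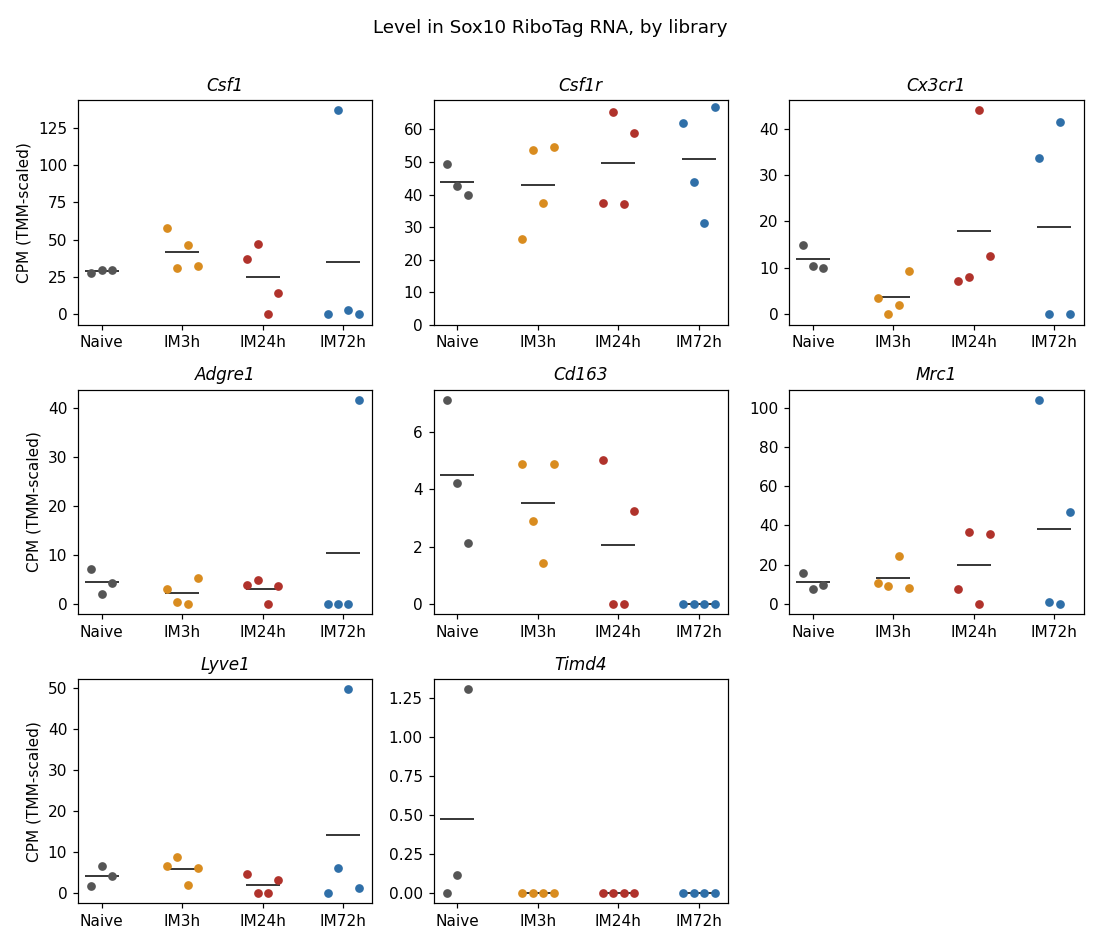
Levels of the 8 listed genes in *RiboTag* RNA, with 1 panel for each gene, the 4 groups on the horizontal axis and CPM on the vertical axis, points for single libraries and lines for the mean. *Csf1* at IM72h runs from 0 to 137 CPM in 4 libraries, and *Cd163* is at 0 in all 4.

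The fractions were then compared at each time, on transcript counts summed to genes in both. Levels in CPM were scaled within each fraction, and the differences between fractions come from a scaling over both. At naive and IM3h the fractions also differ in Cre line, which cannot be told apart from the fraction. Of the 7 genes tested, 1 was called in naive mice, 0 at IM3h (3 at an unadjusted p under 0.05 in edgeR and 0 by DESeq2), 1 at IM24h and 1 at IM72h, beside 26.2%, 24.1%, 12.5% and 30.7% of all genes.

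In naive mice *Csf1* was the gene called, higher in *RiboTag* than in *ME* RNA by 0.81 on the log2 scale (SE 0.25, adjusted p = 0.0444). This call was lost in 5 of the 6 fits that left out 1 library, all but the fit without naive *ME* library 3, with log2 fold changes from 0.63 to 0.80. The receptor genes *Lyve1* (-1.42, SE 0.49, adjusted p = 0.0617), *Mrc1* (-0.91, SE 0.32, adjusted p = 0.0623), *Adgre1* (-0.95, SE 0.49, adjusted p = 0.189) and *Cx3cr1* (-0.49, SE 0.29, adjusted p = 0.242) had log2 differences below 0 that passed no test in edgeR, *Csf1r* stood at 0.30 (SE 0.17, adjusted p = 0.234), and DESeq2 called *Lyve1* and *Mrc1* beside *Csf1*.

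The other CSF1R ligand, *Il34*, was higher in *RiboTag* RNA as well, by 1.71 in naive mice (SE 0.41, adjusted p = 0.0154) and 1.88 at IM3h (SE 0.38, adjusted p = 0.00644). *Il34* stood at 5.05, 3.74 and 3.84 CPM in naive *ME* libraries and at 11.8, 7.19 and 14.1 CPM in naive *RiboTag* libraries, and at 4.11, 5.48 and 7.51 CPM against 22.7, 17.1, 17.8 and 10.2 CPM at IM3h. The calls held in 7 of 10 and 10 of 11 alternatives. At IM24h the difference was 1.33 (SE 1.14, adjusted p = 0.49). At IM72h *Il34* had 0, 0, 0 and 3 *RiboTag* counts against 86 to 141 counts in *ME* libraries and was called lower in *RiboTag* RNA (adjusted p = 0.0458), a call that held in 8 of 12 alternatives, and the interaction with time was called there too (adjusted p = 0.00753). Against naive *RiboTag* RNA *Il34* passed no test at IM72h (adjusted p = 0.136). *Cx3cl1* had 24, 19 and 17 *RiboTag* counts in naive mice, 29, 22, 35 and 0 at IM3h and 0 in all 8 later libraries. It was called lower than in naive *RiboTag* RNA at IM72h (adjusted p = 0.00818) but not at IM24h (adjusted p = 0.154), and lower than in *ME* RNA at IM24h (adjusted p = 0.0124) and IM72h (adjusted p = 0.00213).

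At IM24h *Adgre1* was lower in *RiboTag* than in *ME* RNA by 3.59 on the log2 scale (SE 0.82, adjusted p = 0.0163), with 31, 12, 0 and 19 *RiboTag* counts against 262 to 689 in *ME* libraries, and the call was lost without *ME* library 2, 3 or 4. At IM72h *Cd163* was lower in *RiboTag* RNA at least 3.86-fold, against the floor of 3 counts in each library (adjusted p = 0.00234). The interaction of fraction and time, which asks whether the change against naive mice differed between fractions, called 0 of 7 tested genes at IM3h, 0 of 8 at IM24h and 1 of 7, *Cd163*, at IM72h (adjusted p = 0.0024), beside 1.65%, 0.538% and 23.2% of all genes. At IM3h and IM24h 1 gene had an unadjusted p under 0.05 in edgeR, and DESeq2 called *Csf1* at IM3h and *Adgre1* at IM24h.

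The genes whose levels ran most like these over the 14 *ME* libraries are given as a description, from Pearson correlations of log2 CPM among genes with a mean of at least 5 CPM. The libraries share their groups, depth and Cre lines. *Csf1* ran closest to *Usp12* (r = 0.97), *Rcl1* (0.936) and *Tnpo1* (0.926), and *Cx3cr1* to *Stard8* (0.988), *Scara3* (0.984) and *Eogt* (0.977). *Adgre1* ran with *Cybb* (0.985), the gene of a phagocyte NADPH oxidase subunit, *Arhgdib* (0.98) and *Alox5ap* (0.977), the activator of 5-lipoxygenase. For *Mrc1* they were *Wdfy4* (0.973), *Rab3il1* (0.972) and *Prpf8* (0.969), and for *Csf1r* *Echdc2* (0.969) and *Ly6e* (0.962). The closest genes to *Folr2*, *Lyve1*, *Timd4* and *Cd163* were *Pard6g* (0.94), *Ywhab* (0.855), *Frem2* (0.853) and *Hoxc9* (0.792). Among the 9 genes themselves *Csf1* and *Csf1r* were related by r = -0.244 and *Csf1r* and *Cx3cr1* by r = 0.871 over the same libraries.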

How the data were processed

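The authors sequenced 3′ ends, trimmed reads with cutadapt, used STAR for alignment to the mouse build mm10 and obtained transcript quantities for Ensembl models with Partek Flow. The authors deposited estimated counts, by transcript for both fractions and also by gene for *ME* RNA, without scaling for library size. Depending on the table, 29.3% to 61% of its values were not whole numbers. Only features with a total of at least 10 counts are listed. The deposited tables of the authors' own comparisons, which hold group means, fold changes and p-values, were not used.

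The names of libraries in the tables match no sample label, so groups were taken from the group entry of each table and mapped as a whole, and libraries are numbered by name within a group. Counts of transcripts with 1 gene symbol were added up and rounded. Each comparison was fitted over all genes with edgeR 4.0.16 and limma 3.58.1 under R 4.3.3, after TMM scaling and filterByExpr, by the two-sided quasi-likelihood test, on the libraries of its own groups. A gene was called at a Benjamini-Hochberg adjusted p under 0.05 over all genes tested, and the SE belongs to the log2 fold change. CPM use TMM-scaled library totals. Ratios to *Ptprc* used counts plus 0.5 and exact permutation tests. A group at 0 was bounded with a floor of 3 counts per library, which covers counting error only. DESeq2 1.42.0, other scalings, filters, fits and left-out libraries were alternatives.

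The 9 genes and the marker lists were chosen with earlier results of these data known. Named are the 9 genes, the first 2 genes of a list and up to 3 of its called genes with the largest change, and the 3 genes that ran most like each of the 9. Some genes that this rule would name are not reported here. On simulated counts for *ME* RNA at IM3h (15232 genes), 95.9% of genes changed 4-fold and 43.3% of those changed 2-fold were recovered. The simulations gave every gene the same spread between libraries, so these rates do not apply to genes that vary more. Promoter sequences are from RefSeq and transcript coordinates from GENCODE. Figures were drawn with matplotlib 3.10.9.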

Additional observations from a re-analysis of the deposited data

Results flagged for a closer look

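In groups of 4 libraries, 6 of 42 gene and group pairs had 1 library far above the other 3. The cut used marks about 1 in 20 groups of normally distributed values. Many of these groups hold few counts or zeros, and those at 0 throughout could not be marked. That rate does not apply to them, and an excess over chance was not tested. In *ME* RNA this was *Cx3cr1* at IM24h, with 38.3 CPM in 1 library against 20.3 to 22.9 CPM in the others. In *RiboTag* RNA at IM24h *Cx3cr1* reached 43.9 CPM against 7.26 to 12.6 CPM, and at IM3h *Mrc1* reached 24.4 CPM against 8.26 to 10.6 CPM. At IM72h 1 *RiboTag* library held *Adgre1* at 41.6 CPM where the others held 0, 1 held *Csf1* at 137 CPM against 0 to 2.77 CPM, and 1 held *Lyve1* at 49.8 CPM against 0 to 6.07 CPM. These IM72h libraries held 663819 to 1619436 counts without AY036118.

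The change of *Cd163* at IM72h differed between fractions in the interaction test of edgeR, with a fitted log2 difference of -8.43 (adjusted p = 0.0024). That size depends on the prior count, because all 4 *RiboTag* libraries at IM72h were at 0, and no bound on the interaction was computed.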

How the results depend on the processing

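No paired analysis was possible because the names of libraries in the tables carry no replicate number of the labels, so no replicate block could be fitted. In *ME* RNA, *Csf1* and *Cx3cr1* at IM3h, *Adgre1* and *Mrc1* at IM24h and *Csf1r*, *Cx3cr1* and *Adgre1* at IM72h kept their calls in every alternative run, with log2 fold changes of 1.52 to 2.13, -2.49 to -1.95, 1.81 to 2.78, 1.08 to 2.12, 0.59 to 1.78, 1.16 to 2.37 and 1.88 to 3.10. *Csf1r* and *Cx3cr1* from IM24h to IM72h kept theirs in all but the scaling to 3 reference genes. Where a call was lost the cause was not tested, unless fewer libraries or genes were fitted.

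Some values changed sign. Scaled to 3 reference genes, *Lyve1* at IM3h was -0.10, *Csf1r* at IM24h -0.16, *Cd163* at IM72h -0.53 and *Folr2* from IM24h to IM72h -0.032. With library totals, *Cd163* was 0.20 and *Timd4* 0.30 at IM24h. Leaving out 1 library gave -0.57 to 0.10 for *Timd4* and -0.19 to 0.27 for *Csf1r* at IM24h, -0.30 to 0.35 for *Cd163* at IM72h and -0.22 to 0.94 for *Folr2* from IM24h to IM72h. Without its short transcript, *Mrc1* was -0.35 at IM72h and -1.44 from IM24h to IM72h in *ME* RNA and -4.78 (adjusted p = 0.0379, with 2 counts in all and a size that depends on the prior count) at IM72h in *RiboTag* RNA. Without its short transcript, *Csf1r* in *RiboTag* RNA was -1.18 at IM24h and -3.51 at IM72h, both past no threshold. In ratios, *Cd68* as base gave 0.35 for *Cx3cr1* and 0.73 for *Mrc1* at IM72h and 0.13 for *Adgre1* at IM24h, and *Laptm5* gave -0.32 for *Adgre1* at IM72h and 0.028 for *Lyve1* at IM3h. Leaving out 1 library gave -0.29 to 0.047 for *Mrc1* at IM72h and -0.37 to 0.14 for *Lyve1* at IM3h.

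The number of the 9 genes called moved in these settings. In *ME* RNA it was 2 in place of 4 at IM3h with all groups in 1 fit. It was 5 in place of 3 at IM24h with library totals, where 89.7% of all calls were higher. From IM24h to IM72h it was 0 in place of 3 with 3 reference genes. In *RiboTag* RNA at IM72h it was 0 in place of 1 by DESeq2, without a filter, with all groups in 1 fit and with AY036118 left out, and 1 to 2 without single libraries. Between fractions in naive mice it was 3 in place of 1 by DESeq2, 2 with library totals, 0 with 3 reference genes and 0 to 3 without single libraries. At IM3h it was 1 in place of 0 with library totals and 0 to 2 without single libraries, at IM24h 2 in place of 1 by DESeq2 and 0 to 1 without single libraries, and at IM72h 2 in place of 1 with library totals or 3 reference genes and 1 to 2 without single libraries. The interaction gave 1 in place of 0 by DESeq2 at IM3h and at IM24h, 0 to 1 without single libraries at IM3h, and at IM72h 2 in place of 1 with library totals or 3 reference genes and 1 to 2 without single libraries.

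Over all genes, 3 reference genes gave 2617 calls in place of 4740 at IM24h and 4109 in place of 6272 from IM24h to IM72h in *ME* RNA, and 548 in place of 2134 at IM3h in *RiboTag* RNA. *RiboTag* calls at IM24h were 76 and moved to 858 by DESeq2, 238 without a filter, 47 with all groups in 1 fit and 1 with either scaling. *RiboTag* calls with all groups in 1 fit were 34 at IM3h and 1258 in place of 2191 at IM72h, and 34 at IM72h without a filter. An unadjusted p under 0.05 with a change over 2-fold gave 2834 in place of 5020 at IM3h, 5439 in place of 9544 at IM72h and 4108 from IM24h to IM72h in *ME* RNA, and 3325 at IM3h and 1908 at IM24h in *RiboTag* RNA. Between fractions 3 reference genes gave 2438 in place of 3868 in naive mice, 1536 in place of 3810 at IM3h and 631 in place of 1833 at IM24h, where DESeq2 gave 3508 and library totals 998. The interaction gave 783 in place of 290 at IM3h and 852 in place of 95 at IM24h by DESeq2, 39 and 56 with 3 reference genes, and 447 at IM24h and 7256 in place of 3894 at IM72h with library totals. Of *ME* calls 59%, 53.9% and 50.9% were higher at the 3 times, against 33.9%, 89.7% and 81.3% with library totals and 22.7%, 28.9% and 20.1% with 3 reference genes. With few counts, as for *Folr2* and *Timd4*, smaller changes could be missed.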

Other observations

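Lists of neighbouring cell types gave values that none of the comparisons above turned on. Of 7 dendritic cell genes, 1 of 2 tested was higher at IM3h, 2 of 3 at IM24h and 4 of 6 at IM72h in *ME* RNA, with 0 lower, beside 19.3%, 15.6% and 29.3% of all genes called higher. *Itgax*, which encodes the integrin CD11c, rose by 2.32 (SE 0.42, adjusted p = 0.00209), 4.12 (SE 0.49, adjusted p = 0.000336) and 3.47 (SE 0.27, adjusted p = 2.93e-06) on the log2 scale at the 3 times. *Zbtb46*, a transcription factor of classical dendritic cells, had log2 fold changes of 0.79, -0.73 and 0.46 with adjusted p of 0.0617, 0.327 and 0.0873. The list summed to between 7.22 and 10.3 CPM in naive mice and between 22.8 and 28.1 CPM at IM72h.

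Genes of large peritoneal macrophages, cells of the abdominal cavity that surgery can bring to the bowel surface, were also followed. *Gata6*, their defining transcription factor, had log2 fold changes of 0.53, -0.21 and -0.06 with adjusted p of 0.179, 0.787 and 0.842. Of the 7 genes 1 of 5 tested was higher at IM3h, 0 of 6 at IM24h (none lower), and at IM72h 1 was higher and 1 lower of 6, shares near or below the 19.3%, 15.6% and 29.3% of all genes called higher and the 28.3% called lower at IM72h. The list summed to between 26.8 and 28.2 CPM in naive mice, 36.6 and 46.1 CPM at IM3h and 25.2 and 33.7 CPM at IM72h.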
